A study of Canis lupus with 23 samples.

Results

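Melanomas (n = 5) were set directly against transitional cell carcinomas of the urinary bladder, TCC (n = 3). These were 8 of the 23 spontaneous canine tumors with arrays in the series, and they were chosen by their titles alone, with no measured value in the choice. The study reports more tumors profiled, and more TCC among them, than the series holds. Each tumor was a biopsy from a client-owned dog with disease not yet treated, and its RNA was amplified and hybridised to 1 expression array. The study's methods describe a melanoma cohort open to dogs of any breed with the oral form of the disease, and a TCC cohort of Scottish terriers whose dogs were off non-steroidal anti-inflammatory drugs. The labels give neither breed nor site for a tumor, so that tumor type, breed and body site cannot be told apart in what follows. TCC were sampled through a cystoscope or under ultrasound guidance and the other tumors by needle, punch or open biopsy, so that the way of sampling cannot be told apart from the type either. Lymphomas (n = 7), tumors titled STS (n = 2) and tumors titled sarcoma (n = 2) enter only as a common point against which each type is placed. Tumors are called here by the numbers in their titles, melanomas 0 to 4 and TCC 0 to 2.

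The comparison is one of lineages. Melanocytes arise from the neural crest, the embryonic cell population that also gives rise to Schwann cells, and they make melanin in melanosomes, organelles related to lysosomes. MITF, with SOX10 and PAX3 above it, drives the genes for the pigment enzymes and for the fibrils on which melanin is laid down. Urothelium, from which TCC arises, is an epithelium joined by tight junctions and desmosomes whose surface cells carry plaques of uroplakins, and GATA3 and PPARG are among the factors that direct it. Oral melanoma in dogs is aggressive and can lack visible pigment, and TCC of the dog is treated with cyclooxygenase inhibitors, which makes growth factor receptors and the prostaglandin pathway of interest beside the lineage genes.

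A level is given throughout as log2(signal + 16), where the signal is the MAS5 intensity averaged over the probesets of a gene after the log, so that a signal of 0 reads 4. Differences are melanoma minus TCC on that scale, with standard errors and Benjamini-Hochberg adjusted p-values from limma fitted to the 8 tumors over 9972 genes. A gene is said to be called, or to be higher or lower, at an adjusted p below 0.05 and a difference of at least 1. Because 16 was added to each signal, a difference understates the change of a gene that is near 4 in one type, and a fold is a ratio of signal + 16 and not of the signal itself. A gene without this test ("not tested") was above the median of all values on fewer than 3 of the 23 arrays. Genes whose symbol is only a locus number, 294 of the 9972, were left out wherever genes were ranked by difference, adjusted p or SD. In bulk biopsies, fewer cells of a type and less RNA per cell cannot be told apart.

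Of the 9972 genes, 1055 were called (10.6%), 431 of them higher in melanoma (4.32%) and 624 lower (6.26%). At an unadjusted p below 0.05 the number was 2452. All 5 melanomas lay above all 3 TCC for 871 genes (8.73%) and below them for 1075 genes (10.8%). The median difference over all 15115 annotated genes was 0.05, so the scales of both types were nearly level. The arrays were alike in brightness, with a median signal of 87.19 to 132.2 in melanoma and 81.94 to 102.3 in TCC. The log2 ratio of 3′ to 5′ control probesets for GAPDH and actin, which rises with RNA degradation and with short amplification products, averaged 5.76 to 8.43 in melanoma and 6.14 to 6.86 in TCC, and it was highest in melanomas 0 and 1. The number of calls was most dependent on the TCC: it was 606, 650 and 661 without TCC 0, 1 and 2, and 850 to 1104 when a melanoma was left out. The plot of mean levels shows the calls on both sides of equality.

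**Figure D1:**
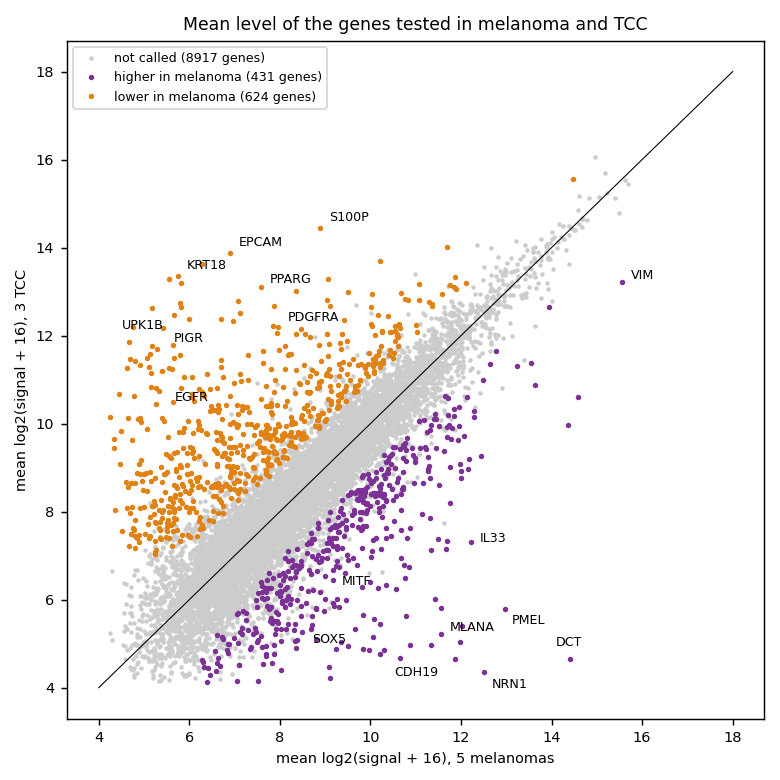
Mean log2(signal + 16) of each of 9972 genes in the 5 melanomas (horizontal axis) and the 3 TCC (vertical axis), with the line of equality. The 431 genes called higher in melanoma lie below the line, led by DCT and NRN1, and the 624 called lower lie above it, with KRT18, EPCAM and UPK1B among the farthest.

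The labels were checked against defining markers. Of the melanocyte markers, DCT, PMEL, MLANA, TYR, SLC45A2 and OCA2 were above every TCC in all 5 melanomas, and in each TCC they were below the overall median of 7.03, with PMEL in TCC 2 just under it at 6.98. Of the urothelial markers, UPK1A, UPK1B, UPK2, UPK3A, GATA3 and PPARG were above every melanoma in all 3 TCC. KRT20, which marks the outermost urothelial cells, was low in both types, at 4.24 to 6.43 in melanoma and 4.73 to 6.01 in TCC, and was not tested. The heat map shows the pattern tumor by tumor.

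**Figure D2:**
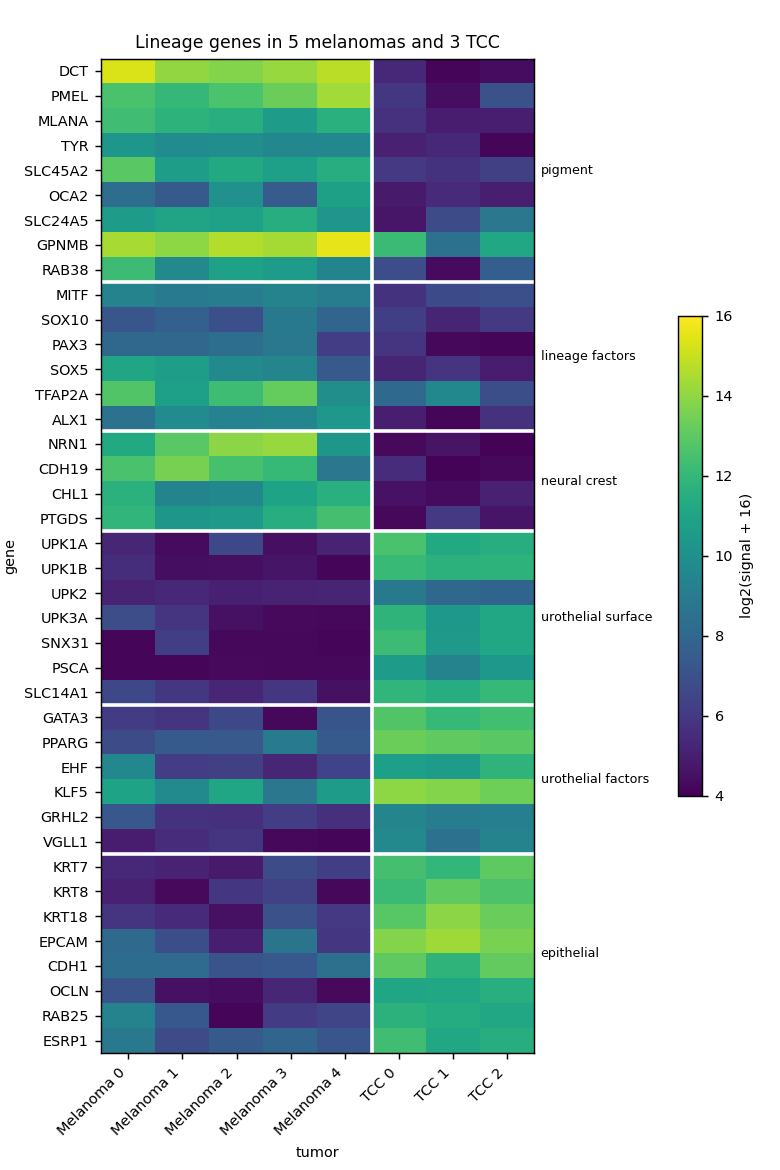
Level of 40 lineage genes, as log2(signal + 16) on the colour scale, in melanomas 0 to 4 (left of the white line) and TCC 0 to 2 (right of it), with genes grouped by role. Most pigment and neural crest genes are bright in the melanomas and dark in the TCC, and most urothelial and epithelial genes the reverse. GPNMB was high in both types, KLF5 was of middle brightness in the melanomas, and EHF and RAB25 were brightest, among the melanomas, in melanoma 0.

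Genes of melanin synthesis and of the melanosome gave the largest difference of the comparison. Of 26 such genes, 21 were tested, 10 were higher in melanoma and 1 was lower, and the median over the 26 was 1.86. DCT, dopachrome tautomerase, which converts an intermediate on the way to brown-black eumelanin, had 15.33, 14.07, 13.76, 14.14 and 14.77 in melanomas 0 to 4, against 5.35, 4.19 and 4.41 in TCC 0 to 2. That was a mean of 14.41 ± 0.63 in melanoma and 4.65 ± 0.61 in TCC (SD, n = 5 and n = 3), or an 869-fold difference in signal + 16 (log2 difference 9.76 ± 0.39, adjusted p = 6.19e-07). TYR, tyrosinase, the rate-limiting enzyme of melanin synthesis, had 10.31, 9.79, 9.88, 9.62 and 9.59 in melanomas 0 to 4, against 5.12, 5.32 and 4.18 in TCC 0 to 2 (log2 difference 4.97 ± 0.34, adjusted p = 1.06e-05). Neither enzyme overlapped between the types, and melanoma 0 was the highest for both. PMEL, which forms the fibrils of the melanosome, had 12.54, 11.97, 12.62, 13.33 and 14.35 in melanomas 0 to 4, against 5.95, 4.42 and 6.98 in TCC 0 to 2 (log2 difference 7.18 ± 0.61, adjusted p = 3.24e-05). MLANA, a melanosomal membrane protein, had 12.30, 11.77, 11.55, 10.58 and 11.60 in melanomas 0 to 4, against 5.70, 4.92 and 5.02 in TCC 0 to 2 (log2 difference 6.35 ± 0.38, adjusted p = 5.75e-06). Both were separated from the TCC by a wide gap, and PMEL was highest in melanoma 4, where MLANA was not.

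Of the transporters and channels of the melanosome, SLC45A2, SLC24A5 and OCA2 were higher in melanoma, while ATP7A, a copper pump (log2 difference -0.51, adjusted p = 0.399), and TPCN2, an ion channel (log2 difference -0.03, adjusted p = 0.976), were not called and SLC24A4 was not tested. SLC45A2 had 12.91, 10.70, 11.31, 10.76 and 11.50 in melanomas 0 to 4, against 6.01, 5.77 and 6.27 in TCC 0 to 2 (log2 difference 5.42 ± 0.46, adjusted p = 3.27e-05). SLC24A5, a potassium-dependent sodium-calcium exchanger, had 10.59, 10.99, 10.88, 11.49 and 10.28 in melanomas 0 to 4, against 4.74, 6.73 and 8.76 in TCC 0 to 2 (log2 difference 4.10 ± 0.70, adjusted p = 0.00349). OCA2 had 8.29, 7.42, 10.07, 7.43 and 10.82 in melanomas 0 to 4, against 4.88, 5.44 and 5.02 in TCC 0 to 2 (log2 difference 3.70 ± 0.75, adjusted p = 0.00924). Of the transporters called, OCA2 varied most among the melanomas, with melanomas 2 and 4 well above the others, and SLC24A5 varied most among the TCC. GPNMB, a glycoprotein of melanosomes and of macrophages, was high in both types, at 14.41, 13.94, 14.64, 14.38 and 15.57 in melanomas 0 to 4, against 12.18, 8.51 and 11.15 in TCC 0 to 2 (log2 difference 3.97 ± 0.68, adjusted p = 0.00355). TYRP1, the third enzyme of the tyrosinase family, was not tested and its probesets disagreed in sign. It stood at 5.07, 6.86, 9.61, 7.75 and 6.58 in melanomas 0 to 4, against 4.88, 4.48 and 4.35 in TCC 0 to 2. MC1R, the receptor for melanocyte-stimulating hormone, was not tested either and stood at 5.70 to 7.82 in melanoma and 4.13 to 4.66 in TCC. GPR143, the melanosomal receptor of ocular albinism, was above every TCC in all 5 melanomas but was not called (log2 difference 1.34 ± 0.47, adjusted p = 0.103). TRPM1, a channel of melanocytes, ranged from 4.75 in melanoma 1 to 10.22 in melanoma 4 and was not called (log2 difference 2.78 ± 1.03, adjusted p = 0.117, called without melanoma 1 at adjusted p = 0.0207, with 0.0207 to 0.317 over all tumors left out).

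Small GTPases of melanosome traffic split between the types. RAB38, which with RAB32 routes pigment enzymes to the melanosome, had 12.22, 9.75, 10.85, 10.57 and 9.42 in melanomas 0 to 4, against 6.84, 4.34 and 7.58 in TCC 0 to 2 (log2 difference 4.31 ± 0.75, adjusted p = 0.00417). RAB32 itself was lower in melanoma, at 10.98, 9.79, 10.66, 10.17 and 8.93 in melanomas 0 to 4, against 11.78, 11.90 and 12.39 in TCC 0 to 2 (log2 difference -1.92 ± 0.42, adjusted p = 0.0142, lost without TCC 2 at adjusted p = 0.0722, with 0.00619 to 0.0722 over all tumors left out). RAB27A, which ties melanosomes to actin through MYO5A in melanocytes, was not called, at 11.21, 10.52, 11.05, 10.44 and 14.91 in melanomas 0 to 4, against 10.48, 10.39 and 10.09 in TCC 0 to 2 (log2 difference 1.31 ± 0.85, adjusted p = 0.388). Its relative RAB27B, which in mouse urothelium is thought to act in the delivery of uroplakin vesicles, was lower in every melanoma than in any TCC, at 8.30, 6.16, 6.21, 4.22 and 4.13 in melanomas 0 to 4, against 13.04, 12.12 and 13.04 in TCC 0 to 2 (log2 difference -6.93 ± 0.82, adjusted p = 0.000327). MYO5A, the motor of the RAB27A complex, was higher (log2 difference 2.34 ± 0.49, adjusted p = 0.0108, lost without TCC 0 or TCC 1 at adjusted p = 0.0626 and 0.0541, with 0.00124 to 0.0626 over all tumors left out). Of 23 subunits of the vacuolar ATPase, the pump that acidifies lysosomes and melanosomes, 18 were tested and 0 were called by limma, with a median of 0.19.

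The transcription factors of the lineage formed the other list with a high median, 1.87 over 19 genes, of which 17 were tested, 11 were higher in melanoma and 1 was lower. The count of higher genes was 8 without melanoma 1, 7 without TCC 0, 7 without TCC 1 and 6 without TCC 2. MITF, the master factor of melanocytes, averaged over 6 probesets, lay in a narrow band in melanoma, at 9.36, 8.93, 9.08, 9.39 and 9.09 in melanomas 0 to 4, against 5.75, 6.70 and 6.92 in TCC 0 to 2 (log2 difference 2.71 ± 0.33, adjusted p = 0.000375). The single probesets of MITF differed by 0.47 to 4.66. PAX3 had 8.04, 7.97, 8.34, 8.78 and 6.20 in melanomas 0 to 4, against 5.87, 4.26 and 4.18 in TCC 0 to 2 (log2 difference 3.10 ± 0.61, adjusted p = 0.008), with melanoma 4 lowest, and SOX5, which modulates SOX10 activity in mouse melanoblasts, had 11.12, 10.74, 9.68, 9.47 and 7.33 in melanomas 0 to 4, against 5.23, 5.84 and 4.95 in TCC 0 to 2 (log2 difference 4.33 ± 0.72, adjusted p = 0.00291), with melanoma 4 lowest again. SOX10 had the smaller difference of the SOX genes called, at 7.22, 7.70, 6.94, 8.83 and 7.91 in melanomas 0 to 4, against 6.25, 5.26 and 6.05 in TCC 0 to 2 (log2 difference 1.87 ± 0.46, adjusted p = 0.026, lost without melanoma 1, TCC 0, TCC 1 or TCC 2 at adjusted p = 0.0528, 0.0547, 0.117 and 0.0679, with 0.0231 to 0.117 over all tumors left out). SOX6, a close relative of SOX5, was higher as well (log2 difference 2.37 ± 0.54, adjusted p = 0.0183, lost without TCC 1 or TCC 2 at adjusted p = 0.0754 and 0.0822, with 0.00381 to 0.0822 over all tumors left out). SOX9, used by several epithelia and cartilage, was not called and overlapped, at 4.53 to 7.82 in melanoma and 6.83 to 8.32 in TCC (log2 difference -0.98 ± 0.68, adjusted p = 0.424). Over the SOX family as a whole, 12 genes were annotated, 4 were tested and 3 were higher (2 without melanoma 1 or TCC 0, and 1 without TCC 1 or TCC 2), with a median of 0.34. TFAP2A, which acts in neural crest and in surface epithelium, was at 12.73, 10.78, 12.26, 13.15 and 9.92 in melanomas 0 to 4, against 8.10, 9.59 and 6.88 in TCC 0 to 2 (log2 difference 3.58 ± 0.77, adjusted p = 0.0127, lost without TCC 0 or TCC 2 at adjusted p = 0.0545 and 0.066, with 0.0034 to 0.066 over all tumors left out).

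ALX1, a homeobox factor of the craniofacial mesenchyme, was one of the better separated factors, at 8.53, 9.79, 9.34, 9.52 and 10.39 in melanomas 0 to 4, against 5.01, 4.15 and 5.69 in TCC 0 to 2 (log2 difference 4.56 ± 0.46, adjusted p = 0.000116). SNAI2, which in the neural crest acts in migration, varied little among the melanomas, at 11.21, 11.32, 11.67, 11.29 and 11.09 in melanomas 0 to 4, against 8.80, 8.34 and 9.16 in TCC 0 to 2 (log2 difference 2.55 ± 0.26, adjusted p = 0.000122). ZEB2, a repressor of CDH1 that melanocytes keep on, did the same, at 12.14, 12.32, 11.84, 12.27 and 11.47 in melanomas 0 to 4, against 9.18, 8.05 and 9.53 in TCC 0 to 2 (log2 difference 3.09 ± 0.35, adjusted p = 0.000241). PPARGC1A, a coactivator of mitochondrial biogenesis that is a target of MITF in human melanoma, was the 1 member of the list lower in melanoma, at 8.15, 5.62, 6.37, 5.15 and 6.46 in melanomas 0 to 4, against 9.67, 8.89 and 8.68 in TCC 0 to 2 (log2 difference -2.73 ± 0.60, adjusted p = 0.0143, lost without TCC 0 at adjusted p = 0.0805, with 0.00114 to 0.0805 over all tumors left out).

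Neural crest and Schwann cell genes held some of the largest single differences. Of 25 annotated, 18 were tested, 7 were higher in melanoma and 0 were lower, with a median of 1.26. The count was 5 without melanoma 2 or melanoma 3, and 4 without melanoma 1 or any of the TCC. NRN1, neuritin, a membrane-anchored protein of neurite growth, had 11.28, 12.92, 13.91, 14.13 and 10.35 in melanomas 0 to 4, against 4.33, 4.63 and 4.12 in TCC 0 to 2, a 286-fold difference in signal + 16 with all 3 TCC near the floor of the scale (log2 difference 8.16 ± 0.77, adjusted p = 6.21e-05). CDH19, a cadherin of Schwann cell precursors, had 12.56, 13.52, 12.51, 12.06 and 8.74 in melanomas 0 to 4, against 5.53, 4.14 and 4.28 in TCC 0 to 2 (log2 difference 7.23 ± 0.88, adjusted p = 0.000391), and was lowest in melanoma 4. CHL1, an adhesion molecule of the L1 family, had 11.65, 9.41, 9.59, 10.95 and 11.62 in melanomas 0 to 4, against 4.58, 4.33 and 5.08 in TCC 0 to 2 (log2 difference 5.98 ± 0.55, adjusted p = 5.3e-05). PTGDS, a prostaglandin D synthase made by melanocytes and glia, had 11.89, 10.35, 10.50, 11.49 and 12.48 in melanomas 0 to 4, against 4.24, 6.003 and 4.69 in TCC 0 to 2 (log2 difference 6.37 ± 0.54, adjusted p = 3.36e-05). The lowest melanoma lay above the highest TCC for all of these genes. Receptors of the lineage were less clear. EDNRB, the endothelin receptor needed by melanoblasts, was at 11.26, 10.27, 11.15, 12.39 and 9.001 in melanomas 0 to 4, against 9.84, 8.38 and 7.83 in TCC 0 to 2 and was not called (log2 difference 2.13 ± 0.68, adjusted p = 0.0711, called without melanoma 4 at adjusted p = 0.0136, with 0.0136 to 0.251 over all tumors left out). KIT, the receptor for stem cell factor, was at 9.10, 9.004, 6.58, 9.08 and 7.36 in melanomas 0 to 4, against 6.81, 6.99 and 6.49 in TCC 0 to 2 and was not called (log2 difference 1.46 ± 0.59, adjusted p = 0.153, called without melanoma 2 at adjusted p = 0.0369, with 0.0369 to 0.336 over all tumors left out). S100B, a marker used in pathology for melanoma, was not tested, stood at 5.69 to 6.60 in melanoma and 4.24 to 5.18 in TCC, and had probesets that disagreed in sign.

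The other genes with the largest positive differences had varied roles. ART3, of the ADP-ribosyltransferase family, was at 13.12, 12.20, 11.34, 11.33 and 11.91 in melanomas 0 to 4, against 6.27, 4.18 and 4.65 in TCC 0 to 2 (log2 difference 6.94 ± 0.52, adjusted p = 1.91e-05). PRKG2, a cGMP-dependent kinase, was at 12.58, 9.99, 9.97, 11.66 and 10.17 in melanomas 0 to 4, against 4.74, 5.51 and 4.69 in TCC 0 to 2 (log2 difference 5.89 ± 0.59, adjusted p = 0.000109), and SCG3, a secretogranin of dense-core granules, at 10.21, 11.41, 12.17, 12.17 and 11.89 in melanomas 0 to 4, against 5.84, 5.51 and 6.08 in TCC 0 to 2 (log2 difference 5.76 ± 0.43, adjusted p = 1.91e-05). TMOD2, a tropomodulin of neurons that caps actin filaments, was below the other melanomas in melanoma 0, at 8.05, 12.68, 13.52, 13.51 and 12.31 in melanomas 0 to 4, against 5.70, 5.45 and 5.03 in TCC 0 to 2 (log2 difference 6.62 ± 1.04, adjusted p = 0.00202). DOK5, an adaptor of receptor kinases, averaged 10.29 ± 0.55 in melanoma and 4.85 ± 0.77 in TCC (SD, n = 5 and n = 3) (log2 difference 5.44 ± 0.42, adjusted p = 1.92e-05). ARHGAP24, a GTPase-activating protein for Rac, averaged 11.35 ± 0.39 in melanoma and 7.12 ± 0.35 in TCC (SD, n = 5 and n = 3) (log2 difference 4.23 ± 0.30, adjusted p = 1.2e-05). IL13RA2, a receptor for interleukin 13 that was high in melanomas 2 and 4, was at 9.47, 8.18, 12.59, 7.35 and 13.50 in melanomas 0 to 4, against 5.67, 4.29 and 4.33 in TCC 0 to 2 (log2 difference 5.46 ± 1.25, adjusted p = 0.0179, lost without TCC 1 or TCC 2 at adjusted p = 0.0738 and 0.071, with 0.00893 to 0.0738 over all tumors left out). NEB, nebulin, the giant thin-filament protein of skeletal muscle, was at 11.16, 11.16, 9.90, 10.38 and 11.36 in melanomas 0 to 4, against 6.49, 4.93 and 5.50 in TCC 0 to 2 (log2 difference 5.15 ± 0.44, adjusted p = 3.24e-05). Of 25 skeletal muscle genes annotated, 10 were tested, NEB was the 1 higher in melanoma and TNNI2, a fast-muscle troponin, was lower, at 5.12 to 7.23 in melanoma and 11.02 to 11.71 in TCC (log2 difference -4.59 ± 0.47, adjusted p = 0.000128), and the median was 0.39.

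The TCC side was led by the urothelial surface. Of 20 uroplakin and urothelial surface genes, 10 were tested, 9 were lower in melanoma and 0 were higher, and the median over the 20 was -2.64, the lowest of the 37 lists. UPK1B, a tetraspanin of the plaque, had 5.59, 4.46, 4.47, 4.66 and 4.20 in melanomas 0 to 4, against 12.10, 11.72 and 11.75 in TCC 0 to 2, a 145-fold lower signal + 16 in melanoma (log2 difference -7.18 ± 0.37, adjusted p = 1.63e-06). The other plaque tetraspanin, UPK1A, had 5.31, 4.34, 6.60, 4.49 and 5.18 in melanomas 0 to 4, against 12.56, 11.29 and 11.48 in TCC 0 to 2 (log2 difference -6.59 ± 0.52, adjusted p = 2.14e-05). UPK3A, of the single-pass uroplakins, had 6.84, 5.82, 4.55, 4.28 and 4.24 in melanomas 0 to 4, against 11.82, 10.42 and 11.19 in TCC 0 to 2 (log2 difference -5.997 ± 0.62, adjusted p = 0.000126). UPK2 had 5.18, 5.40, 5.07, 5.19 and 5.25 in melanomas 0 to 4, against 8.83, 8.01 and 7.86 in TCC 0 to 2 (log2 difference -3.02 ± 0.37, adjusted p = 0.00042). All melanomas were within the lower part of the scale for each uroplakin. UPK3B was not tested and stood at 4.22 to 5.67 in melanoma and 6.59 to 8.30 in TCC.

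Further surface genes behaved alike. SNX31, a sorting nexin that in mouse binds uroplakins during their degradation, had 4.22, 6.22, 4.24, 4.26 and 4.19 in melanomas 0 to 4, against 12.21, 10.45 and 11.13 in TCC 0 to 2 (log2 difference -6.64 ± 0.56, adjusted p = 3.24e-05). PSCA, a GPI-anchored antigen of prostate and bladder, had 4.23, 4.22, 4.29, 4.25 and 4.26 in melanomas 0 to 4, against 10.65, 9.38 and 10.41 in TCC 0 to 2, so that all 5 melanomas lay at the bottom of the scale (log2 difference -5.89 ± 0.38, adjusted p = 9.8e-06). SLC14A1, the urea transporter of the urothelium, had 6.58, 5.95, 5.31, 5.89 and 4.52 in melanomas 0 to 4, against 11.91, 11.46 and 12.03 in TCC 0 to 2 (log2 difference -6.14 ± 0.44, adjusted p = 1.27e-05). VSIG2, an immunoglobulin-domain membrane protein, had 4.20, 4.38, 5.28, 4.29 and 4.19 in melanomas 0 to 4, against 9.07, 10.07 and 8.12 in TCC 0 to 2 (log2 difference -4.62 ± 0.50, adjusted p = 0.000176).

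The factors that direct urothelium and epithelium were mostly lower in melanoma. Of 23 annotated, 17 were tested, 14 were lower and 0 were higher, with a median of -2.48. GATA3 had 6.12, 5.86, 6.62, 4.25 and 7.14 in melanomas 0 to 4, against 12.75, 12.02 and 12.35 in TCC 0 to 2 (log2 difference -6.37 ± 0.55, adjusted p = 3.36e-05). PPARG, a nuclear receptor that drives urothelial differentiation, had 6.79, 7.40, 7.35, 8.96 and 7.42 in melanomas 0 to 4, against 13.30, 13.07 and 12.95 in TCC 0 to 2 (log2 difference -5.52 ± 0.42, adjusted p = 1.92e-05). VGLL1, a cofactor of TEAD factors, had 4.89, 5.53, 5.80, 4.25 and 4.15 in melanomas 0 to 4, against 9.67, 8.49 and 9.35 in TCC 0 to 2 (log2 difference -4.25 ± 0.49, adjusted p = 0.000296). GRHL2, which maintains epithelial junction genes, had 7.28, 5.74, 5.66, 6.17 and 5.68 in melanomas 0 to 4, against 9.44, 9.04 and 9.19 in TCC 0 to 2 (log2 difference -3.12 ± 0.42, adjusted p = 0.000745). Not all were near the bottom in melanoma: KLF5, a factor of basal epithelium and of proliferating cells, had 10.94, 9.74, 11.10, 8.74 and 10.59 in melanomas 0 to 4, against 13.96, 13.75 and 13.34 in TCC 0 to 2 (log2 difference -3.46 ± 0.49, adjusted p = 0.00105). EHF, an ETS factor of epithelia, reached 9.62 in melanoma 0, at 9.62, 6.16, 6.29, 5.27 and 6.42 in melanomas 0 to 4, against 10.79, 10.57 and 11.80 in TCC 0 to 2 (log2 difference -4.30 ± 0.80, adjusted p = 0.00587). ESRP1 and ESRP2, which set the epithelial splicing pattern of receptors such as FGFR2 and CD44, differed by -4.03 ± 0.45 and -3.94 ± 0.48. ELF3, a further ETS factor of epithelia, was lower (log2 difference -3.12 ± 0.63, adjusted p = 0.00926, lost without TCC 0 at adjusted p = 0.0618, with 0.00332 to 0.0618 over all tumors left out), and so was OVOL1 (log2 difference -3.18 ± 0.53, adjusted p = 0.00315). FOXA1, the partner of GATA3, was not tested and stood at 4.13 to 4.48 in melanoma and 6.25 to 7.10 in TCC.

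Junction and adhesion genes of epithelia gave the longest run of calls. Of 37 annotated, 28 were tested, 22 were lower in melanoma and 0 were higher, with a median of -2.32, and 17 to 23 were lower when any 1 tumor was left out. EPCAM, an adhesion molecule of simple epithelia, had 8.11, 6.88, 4.999, 8.63 and 5.89 in melanomas 0 to 4, against 13.76, 14.27 and 13.58 in TCC 0 to 2 (log2 difference -6.97 ± 0.71, adjusted p = 0.00012). OCLN, occludin of the tight junction, had 7.05, 4.52, 4.38, 5.31 and 4.29 in melanomas 0 to 4, against 11.08, 11.21 and 11.56 in TCC 0 to 2 (log2 difference -6.17 ± 0.58, adjusted p = 6.37e-05). CDH1, E-cadherin, had 8.25, 8.22, 7.12, 7.31 and 8.44 in melanomas 0 to 4, against 13.02, 11.83 and 13.14 in TCC 0 to 2 (log2 difference -4.80 ± 0.41, adjusted p = 3.36e-05). E-cadherin was thus not at the bottom of the scale in any melanoma. SPINT1, an inhibitor of membrane serine proteases, had 7.20, 7.84, 6.99, 5.68 and 7.08 in melanomas 0 to 4, against 12.64, 11.59 and 12.73 in TCC 0 to 2 (log2 difference -5.36 ± 0.46, adjusted p = 3.36e-05). RAB25, a GTPase of epithelial recycling endosomes, had 9.36, 7.31, 4.22, 6.10 and 6.53 in melanomas 0 to 4, against 11.71, 11.44 and 11.18 in TCC 0 to 2 (log2 difference -4.74 ± 0.86, adjusted p = 0.00535). RAB25 was higher in melanoma 0 than in the other melanomas. DSG2, the broadly expressed desmoglein, CGN, cingulin of the tight junction, and F11R, junctional adhesion molecule A, differed by -4.20, -4.02 and -3.74. Of 18 claudins, 3 were tested and 2 were lower, CLDN7 at 5.87, 6.02, 5.88, 6.06 and 4.17 in melanomas 0 to 4, against 8.87, 9.40 and 9.37 in TCC 0 to 2 (log2 difference -3.61 ± 0.47, adjusted p = 0.000625) and CLDN1 at 8.53, 7.23, 8.20, 6.88 and 7.996 in melanomas 0 to 4, against 9.36, 10.12 and 10.19 in TCC 0 to 2 (log2 difference -2.12 ± 0.41, adjusted p = 0.00737).

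A minority of the keratins were called. Of 37 annotated, 11 were tested and 3 were lower in melanoma, with 0 higher and a median of -0.17. These were 3 keratins of simple epithelium. KRT18 had 5.79, 5.49, 4.53, 6.98 and 5.97 in melanomas 0 to 4, against 12.88, 13.90 and 13.27 in TCC 0 to 2, a 193-fold lower signal + 16 in melanoma (log2 difference -7.60 ± 0.48, adjusted p = 8.93e-06). KRT8, its partner, had 5.11, 4.32, 5.92, 6.30 and 4.24 in melanomas 0 to 4, against 12.18, 13.09 and 12.63 in TCC 0 to 2 (log2 difference -7.45 ± 0.50, adjusted p = 1.06e-05). KRT7 had 5.32, 5.13, 4.88, 6.77 and 6.23 in melanomas 0 to 4, against 12.44, 11.94 and 13.04 in TCC 0 to 2 (log2 difference -6.81 ± 0.46, adjusted p = 1.06e-05). Melanoma 3 was the highest melanoma for all of them, still far from the TCC. Tested keratins without a call included KRT10 (log2 difference -0.02, adjusted p = 0.986), KRT13 (-0.57, 0.834), KRT16 (0.49, 0.86), KRT17 (-0.41, 0.82) and KRT23 (-2.84, 0.124). KRT20, given above, was not tested.

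The remaining genes with the largest negative differences included both products of glandular or mucosal epithelium and transporters. PDZK1IP1, a small membrane protein that binds PDZK1, had the largest, with 7.73, 6.06, 5.02, 4.76 and 4.19 in melanomas 0 to 4, against 13.61, 13.34 and 12.90 in TCC 0 to 2, a 213-fold lower signal + 16 in melanoma (log2 difference -7.73 ± 0.67, adjusted p = 3.36e-05). MAL, a proteolipid of apical sorting, had 6.89, 5.60, 4.30, 5.99 and 6.31 in melanomas 0 to 4, against 13.02, 13.30 and 13.24 in TCC 0 to 2 (log2 difference -7.37 ± 0.49, adjusted p = 1.06e-05). ALDH1A1, a retinaldehyde dehydrogenase, had 6.41, 6.51, 6.93, 4.26 and 7.25 in melanomas 0 to 4, against 13.97, 13.47 and 13.43 in TCC 0 to 2 (log2 difference -7.35 ± 0.57, adjusted p = 1.98e-05). GABRP, a GABA-A receptor subunit found in epithelia, had 4.19, 5.46, 4.37, 4.49 and 5.30 in melanomas 0 to 4, against 12.14, 12.12 and 12.29 in TCC 0 to 2 (log2 difference -7.42 ± 0.37, adjusted p = 1.63e-06). The TCC agreed closely in these genes, with less than 1 log2 unit between the highest and the lowest. SERPINB7, a serpin, averaged 4.81 ± 0.39 in melanoma and 11.43 ± 0.32 in TCC (SD, n = 5 and n = 3) (log2 difference -6.62 ± 0.34, adjusted p = 1.63e-06). ATP10B, a phospholipid flippase, averaged 4.90 ± 0.58 in melanoma and 11.33 ± 0.21 in TCC (SD, n = 5 and n = 3) (log2 difference -6.42 ± 0.38, adjusted p = 5.75e-06). CYP4A37, a cytochrome P450 of the fatty acid hydroxylase family, was lower in TCC 2 than in the other TCC, at 5.27, 5.14, 4.41, 4.25 and 4.39 in melanomas 0 to 4, against 12.91, 12.24 and 9.24 in TCC 0 to 2 (log2 difference -6.77 ± 0.70, adjusted p = 0.000133).

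Of 22 mucosal secretory genes, 15 were tested, 8 were lower in melanoma and 0 were higher, with a median of -0.91. PIGR, which carries IgA across epithelium, had 5.18, 5.68, 5.58, 5.16 and 5.53 in melanomas 0 to 4, against 12.53, 12.18 and 11.84 in TCC 0 to 2 and the smallest adjusted p of the genes lower in melanoma (log2 difference -6.75 ± 0.29, adjusted p = 6.93e-07). MUC1, a transmembrane mucin, had 6.56, 4.77, 4.56, 5.51 and 5.08 in melanomas 0 to 4, against 12.02, 11.17 and 11.89 in TCC 0 to 2 (log2 difference -6.39 ± 0.46, adjusted p = 1.4e-05). CP, ceruloplasmin, had 6.13, 5.42, 6.40, 4.23 and 6.90 in melanomas 0 to 4, against 13.08, 13.53 and 11.33 in TCC 0 to 2 (log2 difference -6.82 ± 0.63, adjusted p = 5.58e-05). MUC20 differed by -3.92 ± 0.47. AGR2, an endoplasmic reticulum protein of mucus cells, differed by -4.72 ± 0.57, with probesets that disagreed in sign. LCN2, lipocalin 2, ranged widely within each type, at 7.48, 8.06, 12.47, 6.10 and 13.10 in melanomas 0 to 4, against 4.40, 11.49 and 7.53 in TCC 0 to 2, and was not called (log2 difference 1.63 ± 1.80, adjusted p = 0.642). Among 15 genes for adhesion of epithelia to the basement membrane, 11 were tested and 4 were lower, but without TCC 0, TCC 1, TCC 2 or melanoma 1 that count was 1, and without melanoma 2 it was 2. ITGB6, an epithelial integrin that activates TGF-beta, was well separated, at 5.96, 5.57, 5.38, 5.14 and 5.36 in melanomas 0 to 4, against 9.06, 9.67 and 9.17 in TCC 0 to 2 (log2 difference -3.82 ± 0.34, adjusted p = 4.03e-05), while ITGB4 of the hemidesmosome was not called, at 7.61 to 9.30 in melanoma and 8.79 to 9.76 in TCC (log2 difference -0.82 ± 0.43, adjusted p = 0.267).

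**Figure D3:**
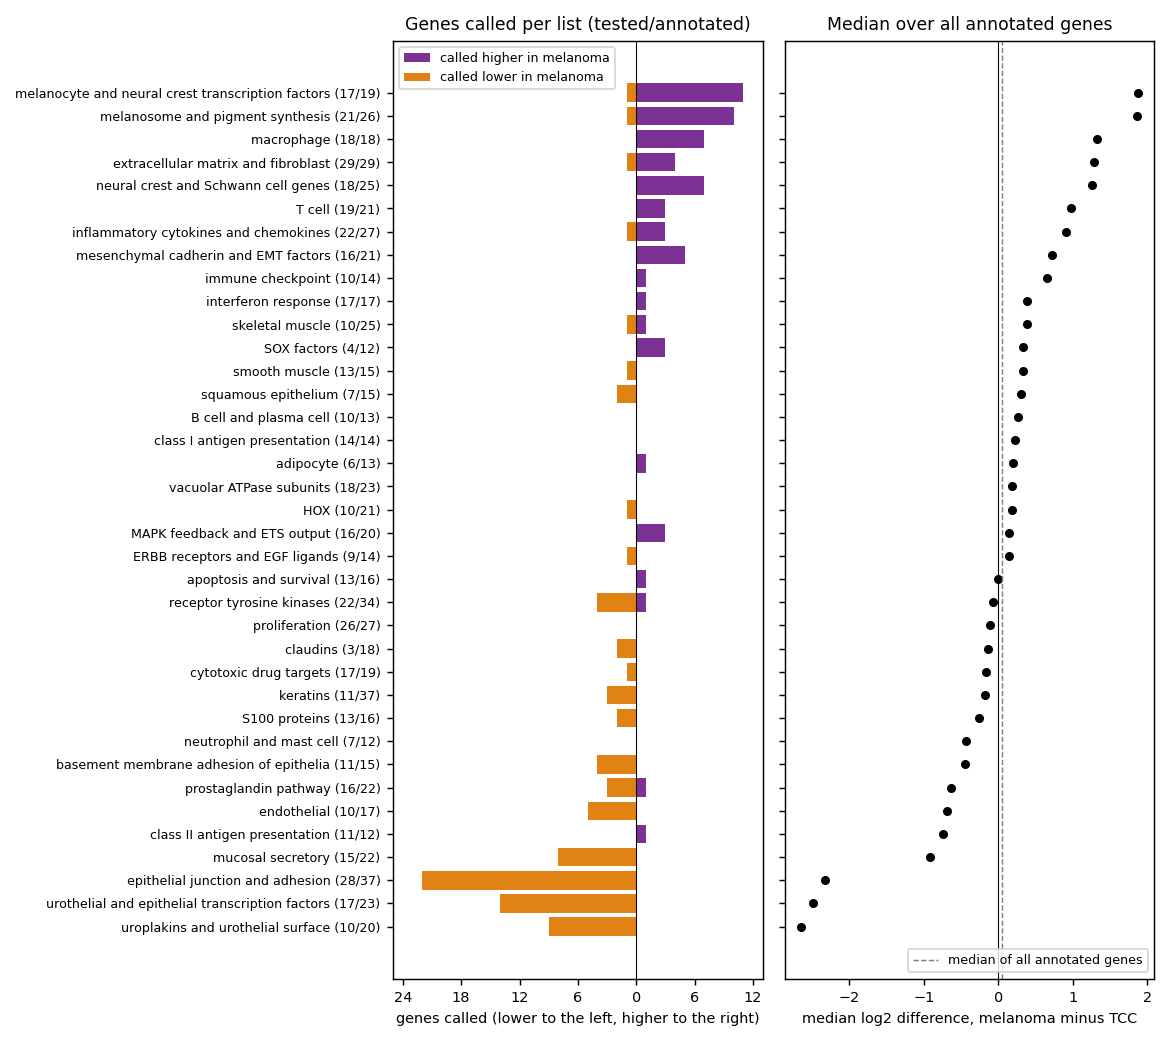
Left, number of genes called lower (to the left of 0) and higher (to the right) in melanoma for each of 37 lists, with the numbers tested and annotated in brackets; right, median log2 difference over all annotated genes of the list, with the median over all 15115 genes as a dashed line. Pigment and lineage factor lists stand at the top with medians of 1.86 and 1.87, and the 3 epithelial lists at the bottom with medians of -2.32 to -2.64.

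Squamous genes did not follow the epithelial pattern. Of 15 annotated, 7 were tested and 2 were lower in melanoma, and the median was 0.30. LY6D had 4.52, 4.71, 5.48, 4.66 and 4.48 in melanomas 0 to 4, against 11.31, 10.88 and 9.70 in TCC 0 to 2 (log2 difference -5.86 ± 0.43, adjusted p = 1.64e-05) and SFN, 14-3-3 sigma, had 9.64, 8.10, 7.12, 6.31 and 7.35 in melanomas 0 to 4, against 10.66, 10.74 and 11.15 in TCC 0 to 2 (log2 difference -3.15 ± 0.61, adjusted p = 0.00725). The mean level of the 15 genes was 8.23, 6.03, 5.65, 5.27 and 5.75 in melanomas 0 to 4, against 6.76, 6.43 and 6.50 in TCC 0 to 2, so that melanoma 0 stood above all the other tumors. KRTDAP, a keratinocyte differentiation protein, was at 14.24, 6.29, 4.23, 4.22 and 4.12 in melanomas 0 to 4, against 6.44, 4.41 and 5.89 in TCC 0 to 2. IVL, involucrin of the cornified envelope, was at 14.67, 10.41, 4.99, 4.72 and 9.40 in melanomas 0 to 4, against 6.74, 6.47 and 8.09 in TCC 0 to 2, and SPINK5, a protease inhibitor of the epidermis, was at 14.15, 9.90, 4.72, 4.38 and 6.97 in melanomas 0 to 4, against 4.55, 4.60 and 6.43 in TCC 0 to 2. These genes were also high, to a lesser degree, in melanoma 1 for IVL and SPINK5, and they were in the bottom range in melanomas 2 and 3. The desmosomal gene DSP was at 12.31, 8.48, 4.22, 6.94 and 7.13 in melanomas 0 to 4, against 9.84, 10.19 and 10.38 in TCC 0 to 2 and was not called (log2 difference -2.32 ± 1.33, adjusted p = 0.317, called without melanoma 0 at adjusted p = 0.0199, with 0.0199 to 0.505 over all tumors left out). PERP was at 10.36, 6.97, 5.40, 4.79 and 7.09 in melanomas 0 to 4, against 10.04, 10.37 and 10.26 in TCC 0 to 2 (log2 difference -3.30 ± 0.99, adjusted p = 0.0572, called without melanoma 0 at adjusted p = 0.000975, with 0.000975 to 0.168 over all tumors left out). DSG3 was at 10.86, 7.08, 4.20, 4.06 and 7.25 in melanomas 0 to 4, against 5.65, 4.17 and 5.89 in TCC 0 to 2 (log2 difference 1.45 ± 1.31, adjusted p = 0.553). What part normal squamous epithelium in the biopsy of melanoma 0 has in these levels was not tested. Without melanoma 0, 1104 genes were called, 484 higher and 620 lower, and 22 of the junction genes and 15 of the epithelial factors were lower.

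Factors and products of the mesenchymal state were in part higher. Of 21 annotated, 16 were tested, 5 were higher in melanoma and 0 were lower, with a median of 0.73, and the count was 3 without melanoma 3, TCC 0 or TCC 1. VIM, vimentin, the intermediate filament of mesenchymal cells, was at 15.04, 15.63, 15.23, 15.68 and 16.14 in melanomas 0 to 4, against 13.46, 12.59 and 13.59 in TCC 0 to 2 (log2 difference 2.33 ± 0.31, adjusted p = 0.000791). ZEB2 and SNAI2, given above, were 2 of the 5. ZEB1, the relative of ZEB2, was not called and overlapped, at 8.72, 8.19, 9.97, 9.32 and 7.88 in melanomas 0 to 4, against 7.94, 8.34 and 8.49 in TCC 0 to 2 (log2 difference 0.56 ± 0.45, adjusted p = 0.496). CDH2, N-cadherin, was high in melanomas 1 to 3 and near the bottom in melanoma 4, at 6.35, 8.56, 8.57, 9.44 and 4.23 in melanomas 0 to 4, against 5.11, 4.32 and 5.04 in TCC 0 to 2, and was not called (log2 difference 2.60, adjusted p = 0.132, called without melanoma 4 at adjusted p = 0.00813, with 0.00813 to 0.32 over all tumors left out). PRRX1, a mesenchymal homeobox factor, was higher (log2 difference 2.99 ± 0.72, adjusted p = 0.0234, lost without melanoma 3, TCC 0 or TCC 1 at adjusted p = 0.0504, 0.106 and 0.091, with 0.0162 to 0.106 over all tumors left out).

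Growth factor receptors differed one by one and not as a group. Of 34 genes in a list of receptor tyrosine kinases outside the ERBB family, which also holds the ligands HGF and KITLG, 22 were tested, 1 was higher and 4 were lower, with a median of -0.07. That 1 of 22 is near the 4.32% of all genes that were higher. The lower count was 2 without TCC 1 and 1 in the fit over 19 tumors. EGFR had 6.44, 6.70, 5.96, 8.38 and 6.54 in melanomas 0 to 4, against 9.91, 11.39 and 9.99 in TCC 0 to 2 (log2 difference -3.63 ± 0.54, adjusted p = 0.00161), and was the 1 of 9 tested ERBB receptors and ligands to be called. A share of 1 in 9 is near the 10.6% of all genes called either way. ERBB2 was below every TCC in all 5 melanomas but was not called, at 6.03, 5.86, 5.49, 6.52 and 4.20 in melanomas 0 to 4, against 7.89, 6.66 and 7.65 in TCC 0 to 2 (log2 difference -1.78 ± 0.55, adjusted p = 0.0634, called without melanoma 3 at adjusted p = 0.0462, with 0.0462 to 0.238 over all tumors left out). ERBB3 was expressed in both, at 9.30, 10.49, 8.87, 9.78 and 9.32 in melanomas 0 to 4, against 10.64, 10.35 and 10.28 in TCC 0 to 2 (log2 difference -0.87 ± 0.35, adjusted p = 0.149, called without melanoma 1 at adjusted p = 0.0384, with 0.0384 to 0.382 over all tumors left out). AREG, amphiregulin, a ligand of EGFR, was at 8.28, 6.70, 9.62, 6.08 and 8.80 in melanomas 0 to 4, against 6.39, 5.96 and 7.08 in TCC 0 to 2 and was not called (log2 difference 1.42 ± 0.73, adjusted p = 0.258). PDGFRA, the receptor for PDGF that is usually read as a stromal gene, was higher in every TCC, at 7.32, 5.91, 8.99, 8.91 and 8.70 in melanomas 0 to 4, against 12.62, 12.31 and 11.67 in TCC 0 to 2 (log2 difference -4.24 ± 0.65, adjusted p = 0.00176). FGFR2 had 7.05, 6.30, 6.67, 7.87 and 8.07 in melanomas 0 to 4, against 9.38, 9.39 and 9.08 in TCC 0 to 2 (log2 difference -2.09 ± 0.42, adjusted p = 0.00935, lost in the fit over 19 tumors at adjusted p = 0.133). MET, the receptor for hepatocyte growth factor, was the 1 receptor higher in melanoma, at 10.68, 8.66, 10.34, 11.02 and 10.76 in melanomas 0 to 4, against 8.39, 8.55 and 8.21 in TCC 0 to 2 (log2 difference 1.91 ± 0.47, adjusted p = 0.0261, lost without melanoma 2, melanoma 3, TCC 0, TCC 1 or TCC 2 at adjusted p = 0.0531, 0.0535, 0.0908, 0.0725 and 0.0956, with 0.000619 to 0.0956 over all tumors left out). Of 20 genes that respond to MAPK signalling, 16 were tested and 3 were higher (2 without melanoma 2 or melanoma 3, 1 without TCC 0 or TCC 2, and 0 without TCC 1), with a median of 0.15. ETV5, an ETS factor among them, had 12.54, 10.88, 10.72, 10.29 and 10.38 in melanomas 0 to 4, against 9.20, 8.38 and 8.39 in TCC 0 to 2 (log2 difference 2.30 ± 0.48, adjusted p = 0.0107, lost without TCC 1 or TCC 2 at adjusted p = 0.0545 and 0.0536, with 0.0029 to 0.0545 over all tumors left out).

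In the prostaglandin pathway, the enzymes of synthesis went opposite ways. Of 22 annotated genes, 16 were tested, 3 were lower in melanoma and 1 was higher, with a median of -0.63. PLA2G4A, the phospholipase that releases arachidonic acid, had 6.63, 6.43, 7.29, 7.32 and 7.48 in melanomas 0 to 4, against 9.98, 9.69 and 10.31 in TCC 0 to 2 (log2 difference -2.96 ± 0.34, adjusted p = 0.000241). PTGS1, cyclooxygenase 1, had 6.97, 6.78, 6.64, 6.04 and 6.44 in melanomas 0 to 4, against 10.99, 8.93 and 11.04 in TCC 0 to 2 (log2 difference -3.75 ± 0.48, adjusted p = 0.000592). PTGS2, cyclooxygenase 2, had 7.06, 7.51, 8.26, 6.26 and 13.56 in melanomas 0 to 4, against 11.45, 9.06 and 12.57 in TCC 0 to 2. It was low in melanomas 0 to 3 and higher in melanoma 4 than in any TCC, and it was not called (log2 difference -2.50 ± 1.42, adjusted p = 0.314, called without melanoma 4 at adjusted p = 0.00918, with 0.00918 to 0.62 over all tumors left out). The list as a whole had 6 genes lower without melanoma 4. PTGR1, which inactivates prostaglandins and leukotrienes, had 12.37, 12.15, 11.92, 10.62 and 11.41 in melanomas 0 to 4, against 14.22, 14.26 and 13.53 in TCC 0 to 2 (log2 difference -2.31 ± 0.38, adjusted p = 0.00302). HPGD, the main degrading dehydrogenase, was at 5.81 to 8.96 in melanoma and 8.20 to 11.10 in TCC and was not called (log2 difference -1.60 ± 0.75, adjusted p = 0.216). PTGDS, given above, was the gene higher in melanoma.

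Targets and transporters of cytotoxic drugs held a single call. Of 19 annotated, 17 were tested, 1 was lower and 0 were higher, with a median of -0.16. Over all genes 6.26% were lower, so 1 of 17 is near that share. ABCB1, the P-glycoprotein efflux pump, had 4.21, 6.14, 6.83, 6.22 and 9.003 in melanomas 0 to 4, against 11.22, 9.96 and 10.01 in TCC 0 to 2 (log2 difference -3.92 ± 0.83, adjusted p = 0.012, lost without TCC 0 at adjusted p = 0.068, with 0.000958 to 0.068 over all tumors left out). TYMS, thymidylate synthase, was at 9.22, 10.48, 10.91, 10.18 and 9.45 in melanomas 0 to 4, against 10.76, 10.59 and 10.68 in TCC 0 to 2 (log2 difference -0.63 ± 0.37, adjusted p = 0.342). Of 27 proliferation genes, 26 were tested and 0 were called by limma, with a median of -0.11. Their mean level was nevertheless spread within melanoma, at 8.03, 9.33, 9.40, 9.51 and 8.21 in melanomas 0 to 4, against 8.96, 8.84 and 9.10 in TCC 0 to 2, so that melanomas 0 and 4 were below and melanomas 1 to 3 above all TCC. Among 16 apoptosis genes, 13 were tested, 1 was higher, beside 4.32% of all genes, and the median was -0.0033.

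Genes of the stroma were measured as groups. Of 29 matrix and fibroblast genes, all 29 were tested, 4 were higher and 1, PDGFRA, was lower, with a median of 1.29. The count of higher genes was 0 without melanoma 1, melanoma 3 or TCC 0, 1 without melanoma 2 or TCC 1, and 4 without TCC 2. Their mean level was 9.34 to 11.08 in melanoma, against 8.67 to 9.84 in TCC, with melanoma 3 highest. COL5A2, a fibrillar collagen chain, was one of the 4, at 11.78, 12.84, 12.69, 12.72 and 11.36 in melanomas 0 to 4, against 9.58, 9.51 and 11.77 in TCC 0 to 2 (log2 difference 1.99 ± 0.53, adjusted p = 0.036, lost without melanoma 1, melanoma 2, melanoma 3, TCC 0 or TCC 1 at adjusted p = 0.0799, 0.077, 0.0748, 0.166 and 0.165, with 0.0047 to 0.166 over all tumors left out). COL1A1, a chain of type I collagen, was at 12.93, 12.77, 13.76, 15.17 and 13.56 in melanomas 0 to 4, against 11.54, 11.98 and 13.12 in TCC 0 to 2 and was not called (log2 difference 1.43 ± 0.53, adjusted p = 0.117). The other fibroblast markers were closer to level and not called: COL3A1 (log2 difference 0.56, adjusted p = 0.579), DCN (0.13, adjusted p = 0.931) and LUM (-0.40, adjusted p = 0.625). BGN, biglycan, was at 7.09, 7.81, 9.37, 10.56 and 9.79 in melanomas 0 to 4, against 5.12, 5.78 and 7.71 in TCC 0 to 2 (log2 difference 2.72 ± 0.80, adjusted p = 0.054, called without melanoma 0 or TCC 2 at adjusted p = 0.018 and 0.0364, with 0.018 to 0.217 over all tumors left out). Of 15 smooth muscle genes, 13 were tested, 0 were higher and 1 was lower, with a median of 0.33. That 1 of 13 is near the 6.26% of all genes that were lower. The gene called was MYH11, a smooth muscle myosin (log2 difference -2.18, adjusted p = 0.027), and the count was 0 to 1 when any 1 tumor was left out. Smooth muscle genes averaged 7.08 to 8.21 in melanoma, against 6.70 to 8.20 in TCC, with TCC 2 highest among the TCC. DES, desmin, was low in both, at 4.28 to 5.33 in melanoma and 5.19 to 6.66 in TCC (log2 difference -0.99 ± 0.54, adjusted p = 0.295). Endothelial genes were, in contrast, on the TCC side: of 17 annotated, 10 were tested and 5 were lower in melanoma, with a median of -0.68, but only 3 without melanoma 1 or melanoma 3, 2 without TCC 0, 0 without TCC 1 and 1 without TCC 2. VWF, von Willebrand factor, had 10.66, 9.34, 9.88, 9.95 and 9.88 in melanomas 0 to 4, against 11.07, 11.51 and 11.47 in TCC 0 to 2 (log2 difference -1.41 ± 0.30, adjusted p = 0.0125, lost without TCC 1 or TCC 2 at adjusted p = 0.0621 and 0.0599, with 0.00372 to 0.0621 over all tumors left out). KDR, a VEGF receptor, had 8.87, 9.44, 9.82, 9.32 and 9.29 in melanomas 0 to 4, against 10.35, 11.11 and 10.33 in TCC 0 to 2 (log2 difference -1.25 ± 0.29, adjusted p = 0.0206, lost without TCC 0 or TCC 1 at adjusted p = 0.051 and 0.107, with 0.0204 to 0.107 over all tumors left out). CDH5, the cadherin of endothelium, overlapped, at 5.63 to 6.99 in melanoma and 6.32 to 6.69 in TCC, with probesets that disagreed in sign (log2 difference -0.27 ± 0.41, adjusted p = 0.756).

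Immune genes varied widely among the melanomas. Of 18 macrophage genes, all 18 were tested and 7 were higher in melanoma, with a median of 1.32. The count was 4 without melanoma 2, melanoma 3 or melanoma 4, 6 without TCC 0, 1 without TCC 1 and 0 without TCC 2. MRC1, the mannose receptor, had 10.42, 10.20, 10.87, 9.26 and 10.94 in melanomas 0 to 4, against 8.42, 8.97 and 7.31 in TCC 0 to 2 (log2 difference 2.10 ± 0.45, adjusted p = 0.0131, lost without TCC 2 at adjusted p = 0.0646, with 0.00543 to 0.0646 over all tumors left out). MSR1, a scavenger receptor, differed by 1.66 ± 0.40 (adjusted p = 0.0235, lost without TCC 1 or TCC 2 at adjusted p = 0.109 and 0.103, with 0.0175 to 0.109 over all tumors left out). CSF1R, the receptor that macrophages need, was not called, at 8.70, 9.34, 9.88, 10.17 and 9.54 in melanomas 0 to 4, against 9.10, 8.20 and 9.17 in TCC 0 to 2 (log2 difference 0.70 ± 0.37, adjusted p = 0.275). The mean level of the macrophage list was 8.80, 9.12, 10.07, 9.68 and 10.15 in melanomas 0 to 4, against 8.89, 7.96 and 8.24 in TCC 0 to 2.

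Of 21 T cell genes, 19 were tested and 3 were higher, with a median of 0.98. That count was 6 without melanoma 0, 1 without melanoma 3, and 0 without melanoma 1, melanoma 2, melanoma 4 or any of the TCC. CD2, an adhesion receptor of T and natural killer cells, was one of the 3, at 7.55, 9.64, 10.18, 9.44 and 10.23 in melanomas 0 to 4, against 7.65, 7.52 and 7.16 in TCC 0 to 2 (log2 difference 1.96 ± 0.54, adjusted p = 0.0411, lost without melanoma 1, melanoma 2, melanoma 3, melanoma 4, TCC 0, TCC 1 or TCC 2 at adjusted p = 0.0843, 0.0876, 0.0733, 0.0676, 0.106, 0.115 and 0.141, with 0.000745 to 0.141 over all tumors left out). CD3D, a chain of the T cell receptor complex, was at 5.91, 9.10, 9.50, 5.70 and 8.78 in melanomas 0 to 4, against 5.56, 5.13 and 6.34 in TCC 0 to 2 and was not called (log2 difference 2.12 ± 0.88, adjusted p = 0.167). CD3G was above every TCC in all 5 melanomas, at 7.51, 10.27, 10.79, 7.60 and 10.44 in melanomas 0 to 4, against 7.20, 7.20 and 5.96 in TCC 0 to 2 (log2 difference 2.53 ± 0.79, adjusted p = 0.0657, called without melanoma 0 or melanoma 3 at adjusted p = 0.0225 and 0.0336, with 0.0225 to 0.226 over all tumors left out). For CD3D and CD3G, melanomas 1, 2 and 4 held the higher values and melanomas 0 and 3 were near the TCC, whereas CD2 was near the TCC in melanoma 0 and not in melanoma 3. Melanomas 1, 2 and 4 were also the higher ones for CCL5, a chemokine of T cells, at 7.19, 10.87, 11.56, 8.18 and 12.06 in melanomas 0 to 4, against 7.09, 6.20 and 6.52 in TCC 0 to 2 (log2 difference 3.37 ± 0.99, adjusted p = 0.054, called without melanoma 0 or melanoma 3 at adjusted p = 0.00785 and 0.0398, with 0.00785 to 0.173 over all tumors left out), for CXCL10, an interferon-induced chemokine, at 5.90, 11.39, 11.39, 6.09 and 10.69 in melanomas 0 to 4, against 5.04, 7.23 and 5.15 in TCC 0 to 2 (log2 difference 3.29 ± 1.34, adjusted p = 0.158), and for CD274, the ligand PD-L1, at 5.93, 8.49, 8.52, 7.43 and 8.97 in melanomas 0 to 4, against 6.47, 6.43 and 6.45 in TCC 0 to 2 (log2 difference 1.42 ± 0.61, adjusted p = 0.178, called without melanoma 0 at adjusted p = 0.0119, with 0.0119 to 0.337 over all tumors left out). None of these was called over all 8 tumors under the settings above. CCL5 was called with the filter set over the 8 arrays, and CD274 with its brightest probeset.

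The cytokine list had 27 genes, of which 22 were tested, 3 were higher and 1 was lower, with a median of 0.91. The higher count was 4 without melanoma 0 or melanoma 4, 1 without melanoma 1, melanoma 2, TCC 1 or TCC 2, and 2 without TCC 0. IL33, an alarmin of the interleukin 1 family held in the nucleus, was the best separated, at 12.33, 12.80, 11.79, 11.52 and 12.62 in melanomas 0 to 4, against 7.83, 6.53 and 7.56 in TCC 0 to 2 (log2 difference 4.90 ± 0.38, adjusted p = 1.98e-05). CXCL8, the neutrophil chemokine interleukin 8, was above every TCC in all melanomas and very high in melanoma 4, at 8.58, 9.31, 11.06, 7.92 and 14.42 in melanomas 0 to 4, against 6.87, 5.85 and 7.16 in TCC 0 to 2, and was not called (log2 difference 3.63 ± 1.20, adjusted p = 0.0797, called without melanoma 4 at adjusted p = 0.0319, with 0.0319 to 0.245 over all tumors left out). Genes of class I presentation (14 tested) and of B and plasma cells (10 tested) had 0 calls by limma, with medians of 0.22 and 0.27. Medians were 0.39 for 17 interferon response genes, 0.66 for 14 checkpoint genes, -0.43 for 12 neutrophil and mast cell genes and 0.20 for 13 adipocyte genes. Of 12 class II presentation genes, 11 were tested, 1 was higher and 0 were lower, with a median of -0.74 that was 0.115 without TCC 0. A share of 1 in 11 is near the 10.6% of all genes called either way. The gene called was CTSS, cathepsin S, a protease that cleaves the invariant chain, at 11.08, 11.92, 12.28, 11.80 and 12.14 in melanomas 0 to 4, against 10.89, 10.09 and 10.04 in TCC 0 to 2 (log2 difference 1.51 ± 0.35, adjusted p = 0.0122), and the list had 0 calls without TCC 1 or TCC 2. CTSS also stands among the called genes of the macrophage list. CD74, the invariant chain, was not called, at 10.60, 12.75, 13.21, 13.05 and 13.73 in melanomas 0 to 4, against 14.85, 13.67 and 13.48 in TCC 0 to 2 (log2 difference -1.33 ± 0.61, adjusted p = 0.211).

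Among HOX genes, which keep a record of position along the body axis, 21 were annotated and 10 tested. Over all genes 10.6% were called either way, so a single call among these 10 is near that share. HOXA13, the hindmost of the HOXA cluster and a gene of the developing urogenital tract, was the 1 called, at 5.94, 6.44, 4.97, 6.10 and 5.51 in melanomas 0 to 4, against 8.49, 8.25 and 8.44 in TCC 0 to 2 (log2 difference -2.60 ± 0.39, adjusted p = 0.00169). HOXA9 was below every TCC in all 5 melanomas without a call (log2 difference -1.39 ± 0.46, adjusted p = 0.0797), and HOXA5 was at 6.63 to 9.27 in melanoma and 9.17 to 9.88 in TCC (log2 difference -1.43 ± 0.54, adjusted p = 0.126). HOXC4 differed by 1.51 ± 0.56 (adjusted p = 0.116). Of 16 S100 genes, 13 were tested and 2 were lower in melanoma. S100P, a calcium-binding protein of epithelia, had 8.12, 8.71, 9.34, 8.97 and 9.32 in melanomas 0 to 4, against 14.68, 14.83 and 13.80 in TCC 0 to 2 (log2 difference -5.54 ± 0.35, adjusted p = 8.05e-06). S100A5 had 4.90, 7.40, 6.43, 4.16 and 10.58 in melanomas 0 to 4, against 12.16, 12.41 and 12.53 in TCC 0 to 2 (log2 difference -5.67 ± 1.14, adjusted p = 0.00898), with melanoma 4 far above the other melanomas. S100A8, a subunit of calprotectin, overlapped, at 15.07, 12.50, 9.43, 7.73 and 13.06 in melanomas 0 to 4, against 8.02, 11.27 and 10.99 in TCC 0 to 2 (log2 difference 1.46 ± 1.43, adjusted p = 0.591).

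A difference between melanoma and TCC can come from either side. To place each type, melanoma and TCC were each set against the mean of lymphoma, STS and sarcoma in a fit over 19 tumors; both contrasts share those 11 tumors, and each also shares its own tumors with the comparison above. In these contrasts 280 genes were called for melanoma (2.81%), 185 higher (1.86%) and 95 lower (0.953%). For TCC 1107 were called (11.1%), 643 higher (6.45%) and 464 lower (4.65%). The lower count for melanoma was 49 without melanoma 0, 49 without melanoma 1 and 62 without sarcoma 1, the higher count was 121 without sarcoma 1, and the lower count for TCC was 299 without TCC 0 and 197 without TCC 1. DCT lay 9.55 above the other types in melanoma (adjusted p = 3.82e-11) and -0.21 from them in TCC (adjusted p = 0.843). TYR was placed alike, with 4.91 in melanoma (adjusted p = 4.21e-08) and -0.06 in TCC (adjusted p = 0.951), and so was PAX3, with 3.04 (adjusted p = 0.000835) and -0.06 (adjusted p = 0.962). These genes were called in the melanoma contrast and not in the TCC contrast.

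Other genes higher in melanoma than in TCC were called only in the TCC contrast, or in both. MITF was 1.19 above them in melanoma (adjusted p = 0.0871) and -1.52 in TCC (adjusted p = 0.025). VIM was 0.44 above them in melanoma (adjusted p = 0.391) and -1.90 in TCC (adjusted p = 0.000189). ZEB2 was 0.79 in melanoma (adjusted p = 0.21) and -2.30 in TCC (adjusted p = 0.000432). TMOD2 had 2.62 in melanoma (adjusted p = 0.0546) and -4.004 in TCC (adjusted p = 0.00408). SCG3 was called on both sides, at 2.82 in melanoma (adjusted p = 0.00906) and -2.94 in TCC (adjusted p = 0.00672), and so were PTGDS, at 3.71 (adjusted p = 0.000961) and -2.66 (adjusted p = 0.016), and CHL1, at 4.27 (adjusted p = 1.95e-06) and -1.71 (adjusted p = 0.0183).

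The epithelial and urothelial genes named here were called in the TCC contrast. UPK1B had -0.26 in melanoma (adjusted p = 0.815) and 6.92 in TCC (adjusted p = 3.42e-08). KRT18 had -1.10 in melanoma (adjusted p = 0.294) and 6.50 in TCC (adjusted p = 1.1e-06). PIGR had -0.02 in melanoma (adjusted p = 0.984) and 6.73 in TCC (adjusted p = 1.78e-10), CDH1 0.51 (adjusted p = 0.698) and 5.31 (adjusted p = 1.53e-05), and HOXA13 0.23 (adjusted p = 0.852) and 2.84 (adjusted p = 0.00157). RAB32, the melanosome GTPase lower in melanoma than in TCC, was 0.59 above the other types in melanoma (adjusted p = 0.399) and 2.51 above them in TCC (adjusted p = 0.000261). Receptors gave further patterns. ERBB3, not called between the types, was higher in both than in lymphoma and sarcoma, by 2.81 in melanoma (adjusted p = 0.00233) and 3.69 in TCC (adjusted p = 0.000239). PDGFRA had -2.12 in melanoma (adjusted p = 0.0064) and 2.12 in TCC (adjusted p = 0.00669). MET was higher in melanoma, by 3.31 (adjusted p = 0.00029), and had 1.40 in TCC (adjusted p = 0.109).

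**Figure D4:**
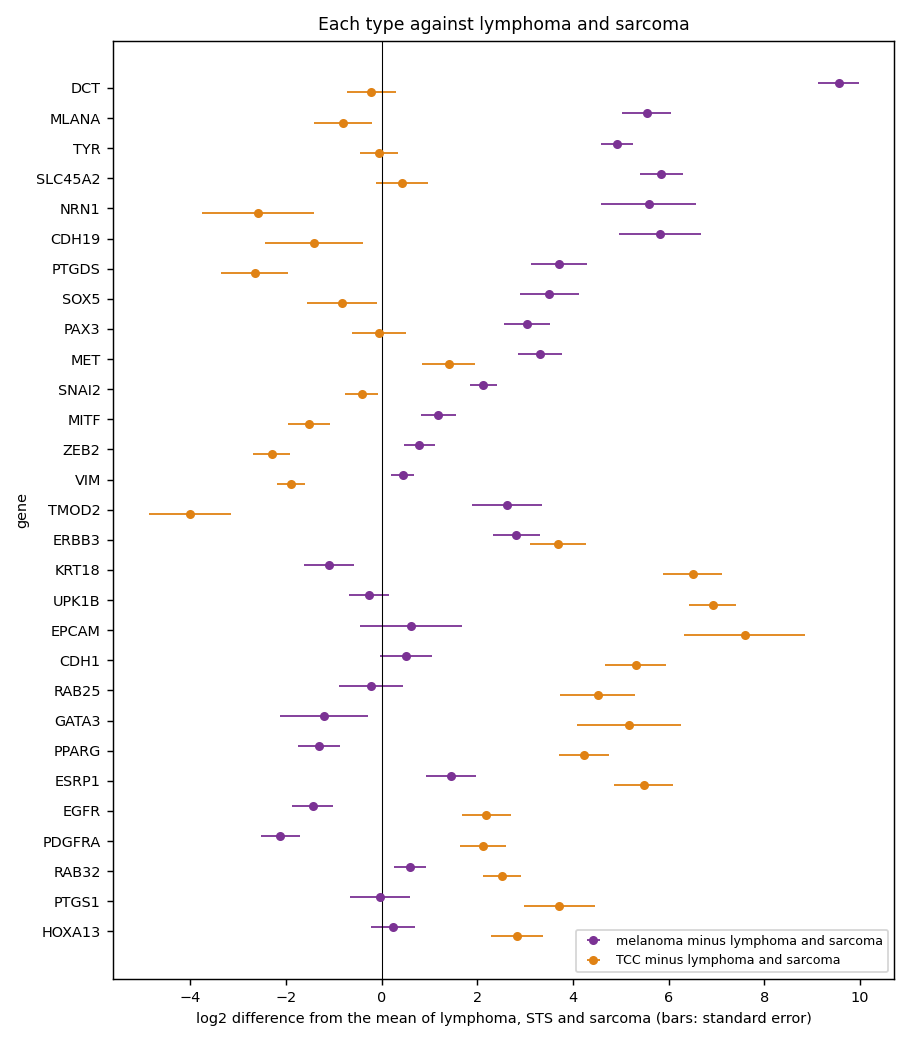
Log2 difference of melanoma (upper point of each pair) and TCC (lower point) from the mean of lymphoma, STS and sarcoma for 29 genes, with standard errors as bars. DCT, MLANA and TYR lie far to the right in melanoma and near 0 in TCC, UPK1B and KRT18 far to the right in TCC, ERBB3 is above 0 in both, and PDGFRA lies on opposite sides.

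Levels were more spread among the 5 melanomas than among the 3 TCC, with a median SD over genes of 0.541 in melanoma and 0.357 in TCC, and 71.9% of the genes had the larger SD in melanoma. An SD over 3 tumors is less precise, and tends to be lower, than one over 5, and the difference in SD was not tested. After each gene was centred over the 23 tumors, the correlation between melanomas across genes averaged 0.282 over 10 pairs (0.153 to 0.391), against 0.697 over 3 pairs of TCC (0.678 to 0.723), and -0.0932 over the 15 pairs of a melanoma and a TCC (-0.217 to 0.0873). These correlations also rise with the distance of a type from the mean of all tumors, so that they do not measure spread within a type. They describe the arrays, since genes are not independent replicates and each tumor enters several pairs. Among the melanomas, 0 and 1 had the highest correlation and 3 and 4 the lowest.

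**Figure D5:**
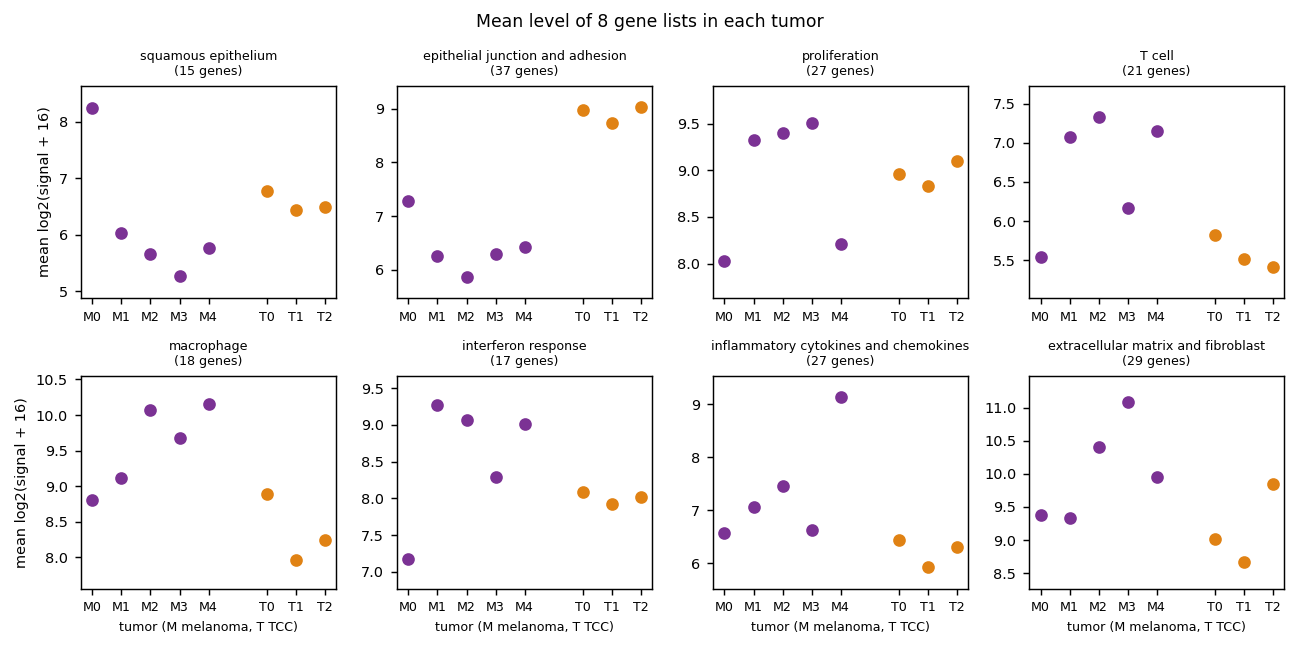
Mean log2(signal + 16) over the annotated genes of 8 lists in melanomas 0 to 4 (M0 to M4) and TCC 0 to 2 (T0 to T2); each panel has its own axis, which does not start at 0. Melanoma 0 stands above all other tumors for squamous genes at 8.23, melanoma 4 for cytokines at 9.13, and melanomas 1, 2 and 4 hold the higher levels of T cell and interferon genes.

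The genes with the largest SD among melanomas fell into a few patterns. KRTDAP, IVL, SPINK5 and DSC2, a desmocollin at 13.47, 9.33, 5.69, 5.80 and 8.001 in melanomas 0 to 4, against 6.79, 10.75 and 9.47 in TCC 0 to 2, were highest in melanoma 0. S100A2, a calcium-binding protein of basal epithelium, was at 14.01, 12.64, 6.75, 4.52 and 12.17 in melanomas 0 to 4, against 12.64, 12.62 and 12.25 in TCC 0 to 2, and TMPRSS11D, an airway-type serine protease, was at 12.53, 7.20, 4.29, 5.66 and 7.77 in melanomas 0 to 4, against 11.46, 8.19 and 13.12 in TCC 0 to 2 (called without melanoma 0 at adjusted p = 0.0224, with 0.0224 to 0.532 over all tumors left out). Both were bright in melanoma 0 and, for S100A2, in melanomas 1 and 4. LCN2, given above, was bright in melanomas 2 and 4. UCP1, the uncoupling protein of brown fat, was bright in melanomas 1 and 4, at 4.28, 10.55, 4.33, 6.71 and 11.01 in melanomas 0 to 4, against 6.49, 5.38 and 6.50 in TCC 0 to 2. NETO1, a partner of neuronal glutamate receptors, was bright in melanomas 0 and 1, at 10.43, 10.72, 4.56, 5.78 and 4.54 in melanomas 0 to 4, against 4.28, 4.48 and 6.20 in TCC 0 to 2, and CFAP161, a cilium-associated protein, in melanoma 4, at 7.37, 4.56, 6.60, 4.16 and 12.85 in melanomas 0 to 4, against 5.88, 5.94 and 5.85 in TCC 0 to 2. None of these was called.

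Among the TCC, the genes with the largest SD were SLC6A14, an amino acid transporter, at 9.68, 6.26, 4.57, 4.26 and 6.86 in melanomas 0 to 4, against 4.39, 11.79 and 7.47 in TCC 0 to 2, LCN2, THBS4, a thrombospondin, DNAJC12, a heat shock protein cofactor, and FHL2, a LIM-domain protein. THBS4 was at 12.04, 11.78, 10.77, 11.14 and 12.37 in melanomas 0 to 4, against 4.91, 6.70 and 11.59 in TCC 0 to 2, where TCC 2 lay among the melanomas (log2 difference 3.89 ± 1.14, adjusted p = 0.0528, called without TCC 2 at adjusted p = 0.000287, with 0.000287 to 0.217 over all tumors left out). DNAJC12 was at 7.49, 6.72, 7.40, 7.42 and 5.99 in melanomas 0 to 4, against 9.49, 4.32 and 10.07 in TCC 0 to 2 (log2 difference -0.96 ± 1.07, adjusted p = 0.647, called without TCC 1 at adjusted p = 0.0079, with 0.0079 to 0.978 over all tumors left out), with TCC 1 low, and FHL2 was at 5.82, 6.25, 7.26, 5.14 and 6.55 in melanomas 0 to 4, against 6.32, 12.40 and 8.86 in TCC 0 to 2 (log2 difference -2.99 ± 1.05, adjusted p = 0.1, called without TCC 0 at adjusted p = 0.015, with 0.015 to 0.347 over all tumors left out), with TCC 1 high. SLC6A14 and LCN2 were also highest in TCC 1 among the TCC.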

How the data were processed

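RNA from canine tumor biopsies was amplified (whole-transcriptome amplification from small amounts of RNA) and hybridised to Affymetrix Canine Genome arrays, 1 array per tumor. The deposited values were linear MAS5 signal intensities that the authors computed in Expression Console and scaled to a common trimmed mean, which here was 500.1 on every array. No depth exists for arrays, and the number of tumors limits the precision. No array batch is given in the sources used here. From the deposited intensity values, 111 control probesets were left out, and of 42924 others the 29254 annotated with 1 symbol were averaged, after log2(signal + 16), over 15115 symbols; 13231 probesets are unnamed here and 439 carried several symbols. Probeset symbols came from the platform annotation and were not updated. Probesets averaged into a gene could agree in sign and still differ widely in size. Their differences ran from 1.16 to 6.89 for TYR, -9.55 to -1.53 for PIGR, -6.53 to -0.143 for ITGB6 and -5.09 to -0.472 for GRHL2.

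A gene was tested when its level exceeded 7.03, the overall median, on 3 or more of the 23 arrays, which left 9972. The 5 melanomas and 3 TCC were fitted with limma 3.58.1 in R 4.3.3 (lmFit, eBayes with a variance trend, two-sided, 6 residual and 4.89 prior degrees of freedom). Whether the numbers in the titles pair the tumors was checked: same-numbered melanoma and TCC correlated, after centring, at -0.03, 0.04 and -0.01, and they came from different dogs, so no pairing was used. Replicates are tumors of different dogs. The fit was tested on simulated data of 9972 genes for melanoma against TCC, where 64% of genes changed by a log2 difference of 2 and 96% of those changed by 4 were called and 4.76% of calls were false. The simulated noise was normal, independent between genes and equal in SD for both types, with 100 genes changed by each size. Real genes are not independent, and 71.9% had the larger SD in melanoma, so these shares need not hold for the real calls.

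Named were the 15 called, not overlapping genes with the largest difference each way, members of 37 lists, the 5 smallest adjusted p each way, and the genes with the largest SD (10 in melanoma, 5 in TCC). Symbols that are only a locus number were left out of these rankings. The comparison, its members and the lists were chosen with earlier results of these data known, so a list's direction is not independent evidence. A list is described by counts and by its median over all annotated members, with no set test. Each count is to be read beside the shares over all genes, 4.32% higher and 6.26% lower. Alternatives were other pseudocounts (1 and 64), quantile normalization, other filters, the brightest probeset, no variance trend, a fit over 19 tumors, the title number as a replicate block, adjusted p alone, and each tumor left out. For lymphoma and sarcoma contrasts, leaving out tumors was added after the data were seen, as were alternatives for correlations.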

Additional observations from a re-analysis of the deposited data

Results flagged for a closer look

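Among 167 named genes, 17 (10.2%) had 1 melanoma whose gap to the nearest other melanoma took up an unusually large part of the range of the 5. Chance flags about 1 gene in 20, but the named genes include those picked for their SD among melanomas and some chosen after their values were seen, so that share is no measure of an excess. Only groups of 4 or more were looked at, so the TCC were not.

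In melanoma 4, 3 genes stood apart. RAB27A reached 14.91 against 10.44 to 11.21 in the other melanomas, PTGS2 reached 13.56 against 6.26 to 8.26, and CLDN7 was lower than elsewhere, at 4.17 against 5.87 to 6.06. In melanoma 0, KRTDAP reached 14.24 against 4.12 to 6.29, EHF 9.622 against 5.27 to 6.42 and ETV5 12.54 against 10.29 to 10.88, while TMOD2 was low at 8.055 against 12.31 to 13.52.

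Melanoma 1 was apart for SNX31, at 6.224 against 4.19 to 4.26, for MET, at 8.66 against 10.34 to 11.02, and for CRABP2, at 6.995 against 8.43 to 8.98. MET in this melanoma was close to the highest TCC, at 8.55, and CRABP2 encodes a retinoic acid carrier. Melanoma 2 was apart for VSIG2, at 5.28 against 4.19 to 4.38, for LY6D, at 5.482 against 4.48 to 4.71, for TMPRSS2, at 5.931 against 4.48 to 4.81, and for HPGD, at 5.811 against 8.11 to 8.96. Melanoma 3 was apart for ALDH1A1, at 4.26 against 6.41 to 7.25, for TNNI2, at 5.118 against 6.90 to 7.23, and for ESR1, at 4.948 against 4.14 to 4.27. For SNX31, VSIG2, LY6D, TMPRSS2 and ESR1 all 5 values were in the low part of the scale.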

How the results depend on the processing

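CTSS, called in the class II list, and MYH11, called in the smooth muscle list, were not followed singly through the alternatives. They are not in the counts below. The direction of all other called genes named here was the same under every alternative. Of the 113 named genes called, 94 stayed called whichever of the 8 tumors was left out, and 92 stayed called under every alternative tried. The fit over 19 tumors lost 6 of the 113: FGFR2 (adjusted p = 0.133), KDR (0.148), LHX8 (0.0653), MSR1 (0.306), SOX10 (0.0702) and TFAP2A (0.0523). The replicate block lost 8: CRABP2 (adjusted p = 0.0588), CD2, KDR, LHX8, MET, MSR1, SOX10 and VWF. CD2 was also lost with no filter, COL5A2 with the brightest probeset, and both with no variance trend. Named genes not called above were called under some alternatives. The fit over 19 tumors gained 4: PERP (adjusted p = 0.0109), FHL2 (0.0422), TRPM1 (0.0438) and CDH2 (0.0494). The replicate block gained 6: BGN, CDH2, CXCL8, EDNRB, HPGD and PTGS2. The brightest probeset gained 7: BGN, CD274, CXCL8, FHL2, HOXA9, THBS4 and TRPM1. Quantile normalization gained 3 (BGN, ERBB2 and HOXA9), as did the filter over the 8 arrays (BGN, CCL5 and THBS4). The number of genes called was 978 with a pseudocount of 1, 1009 with 64, 1086 after quantile normalization, 984 with no filter, 1138 with the brightest probeset and 983 in the fit over 19 tumors, which shared 838 genes with the 1055. With the title number as a replicate block it was 821, of which 703 were shared; the numbers do not pair these tumors. The share of calls that were higher in melanoma was 40.9%, and 32.3% to 43.8% over the alternatives.

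Leaving out 1 tumor gave 606 to 1104 calls, 210 to 484 of them higher in melanoma and 377 to 639 lower. The same gave, against lymphoma and sarcoma, 121 to 220 higher and 49 to 117 lower for melanoma, and 447 to 659 higher and 197 to 488 lower for TCC. Leaving out a TCC leaves 2 tumors in that group, which are assumed to vary like the melanomas.

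Genes that were not called could change sign. DSC2 was -0.55 and became 0.49 with the replicate block, with -1.80 to 0.33 when 1 tumor was left out. Over the tumors left out, LCN2 was -0.069 to 3.48, KRTDAP -0.87 to 1.67, CFAP161 -0.22 to 1.95, SLC6A14 -3.30 to 0.40 and DNAJC12 -2.78 to 0.10. The mean correlation was 0.210 to 0.303 between melanomas and 0.582 to 0.731 between TCC over the alternatives. List medians near 0 changed sign under some alternative for the apoptosis, drug target, HOX, keratin, MAPK, proliferation, receptor tyrosine kinase, smooth muscle and squamous lists, and the class II median was 0.115 without TCC 0. Signals near the bottom of the scale have no reliable order, and 19.9% to 22.8% of probesets were below a signal of 16 in melanoma and 21.6% to 23.2% in TCC.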

Other observations

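The genes in this section are in none of the lists or rules and were chosen after their values were seen, so that their tests are descriptive. IL33, given above as higher in melanoma, has IL1RL1, also called ST2, as its receptor. IL1RL1 had 4.23, 4.25, 4.40, 4.51 and 5.09 in melanomas 0 to 4, against 11.62, 9.02 and 8.84 in TCC 0 to 2 (log2 difference -5.33 ± 0.60, adjusted p = 0.000241), so that all 5 melanomas were near the bottom of the scale and all TCC were well above it. The ligand and the receptor were thus called in opposite directions.

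Among the genes chosen in this way, a hormone receptor, a cytokine and a protease were lower in melanoma. ESR1, estrogen receptor alpha, had 4.14, 4.19, 4.18, 4.95 and 4.27 in melanomas 0 to 4, against 10.08, 8.95 and 9.91 in TCC 0 to 2 (log2 difference -5.30 ± 0.41, adjusted p = 1.92e-05). TNFSF11, the osteoclast cytokine RANKL, had 4.15, 4.33, 5.41, 5.10 and 4.26 in melanomas 0 to 4, against 9.86, 10.12 and 10.41 in TCC 0 to 2 (log2 difference -5.48 ± 0.40, adjusted p = 1.64e-05), and TMPRSS2, a membrane serine protease of prostate and other epithelia, had 4.64, 4.48, 5.93, 4.70 and 4.81 in melanomas 0 to 4, against 10.77, 9.68 and 9.94 in TCC 0 to 2 (log2 difference -5.22 ± 0.43, adjusted p = 2.84e-05). For each of these, the lowest TCC was above the highest melanoma.

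Developmental factors outside the lists were called in both directions. HAND2, a factor of limb, heart and branchial arches, had 5.67, 4.24, 4.40, 4.67 and 4.71 in melanomas 0 to 4, against 8.50, 7.57 and 8.22 in TCC 0 to 2 (log2 difference -3.36 ± 0.45, adjusted p = 0.000797), SIX4, a homeobox factor of muscle and kidney development, had 6.50, 6.27, 6.68, 7.12 and 6.01 in melanomas 0 to 4, against 10.53, 10.13 and 10.28 in TCC 0 to 2 (log2 difference -3.80 ± 0.32, adjusted p = 3.24e-05), and OSR2, of the odd-skipped family, had 6.35, 7.30, 5.79, 4.60 and 4.87 in melanomas 0 to 4, against 10.52, 8.30 and 10.59 in TCC 0 to 2 (log2 difference -4.02 ± 0.69, adjusted p = 0.00379), all lower in melanoma. LHX8, a LIM homeobox factor of tooth and forebrain development, was higher, at 6.78, 6.87, 8.54, 9.15 and 7.15 in melanomas 0 to 4, against 6.02, 4.13 and 4.14 in TCC 0 to 2 (log2 difference 2.94 ± 0.66, adjusted p = 0.0169, lost without TCC 1 or TCC 2 at adjusted p = 0.0795 and 0.0778, with 0.0141 to 0.0795 over all tumors left out). CRABP2, which carries retinoic acid to its receptors, was higher (log2 difference 2.88 ± 0.53, adjusted p = 0.00578, lost with the replicate block at adjusted p = 0.0588).

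On the melanoma side, CITED1, a transcriptional coactivator, had 8.43, 11.83, 11.46, 9.34 and 8.78 in melanomas 0 to 4, against 4.69, 4.64 and 5.25 in TCC 0 to 2 (log2 difference 5.11 ± 0.75, adjusted p = 0.00135), and was highest in melanomas 1 and 2. IGSF11, an adhesion molecule of the immunoglobulin superfamily, had 11.92, 10.81, 11.98, 11.63 and 11.96 in melanomas 0 to 4, against 6.45, 7.36 and 7.68 in TCC 0 to 2 (log2 difference 4.50 ± 0.36, adjusted p = 2.48e-05) and varied little among the melanomas.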
